A study of Mus musculus with 8 samples.

Results

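The 8 libraries of primary mouse brain microvascular endothelial cells were compared by their replicate number. The 4 libraries whose titles end in replicate 3 or 4 were set against the 4 whose titles end in replicate 1 or 2, so that all 8 libraries of the series entered, 4 on each side. Each side held 2 libraries labelled wild type and 2 labelled Cavb3 knockout, and the genotype label was a covariate. The comparison covered 11445 autosomal genes, out of 54532 in the tables, with an FPKM (fragments scaled by exon length and by mapped fragments) of at least 1 in at least 4 libraries. It asks which programs of gene expression separated the cultures behind the replicate numbers, whatever their genotype.

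Brain microvascular endothelial cells line the small vessels of the brain and form the blood-brain barrier. Per the labels, cells were isolated from wild type mice or from mice deficient in Cavβ3, the product of Cacnb3 and an auxiliary subunit of voltage-gated calcium channels. Cells of both genotypes grew in DMEM that held fetal calf serum, heparin, fibroblast growth factor, penicillin and streptomycin, and the labels name no treatment. The series describes 4 independent biological replicates per genotype, and gives no age, sex, passage, day in culture or shared batch for any library. The Y-linked helicase gene Ddx3y stood at 9.48, 8.59, 7.76 and 6.98 FPKM in replicates 1 and 2, and no read of it was recovered in replicates 3 and 4, which allows at most 0.0246 FPKM (3 reads, counting error only). Xist, the RNA that coats the inactive X chromosome, lay between 12.4 and 15.1 FPKM in replicates 1 and 2 and between 28.3 and 43.3 FPKM in replicates 3 and 4. Sex-linked expression, and whatever else the cultures of one side shared, therefore cannot be told apart from the replicate set.

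The gene that names the knockout did not separate the genotype labels across both sides. Wild type replicates 1 and 2 held Cacnb3 at 3.38 and 3.56 FPKM, and wild type replicates 3 and 4 at 1.12 and 0.980 FPKM. Replicates 1 to 4 under the knockout label held 1.70, 2.09, 2.47 and 1.77 FPKM of it. Wild type lay above the knockout label in replicates 1 and 2 and below it in replicates 3 and 4, so the labelled genotypes overlapped over all libraries. A value for the whole gene does not show whether deleted exons were read, so the group is named by its label. The set difference of Cacnb3 was -0.51 on the log2(FPKM + 1) scale with a limma adjusted p of 0.116.

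Between 23491645 and 33813070 fragments per library were implied by the steps between low FPKM values. More genes were above 0 in replicates 3 and 4 (24617 to 27180) than in replicates 1 and 2 (22581 to 24574). Endothelial markers were expressed on both sides. The summed FPKM of 12 brain endothelial markers was 1622 to 2043 in replicates 1 and 2 and 1451 to 1708 in replicates 3 and 4. This sum includes general endothelial genes such as Pecam1 and Cdh5, so it does not show that traits of brain endothelium were kept. Of these markers Slco1a4 and Mfsd2a, a pair of blood-brain barrier transporters, stayed under 1 FPKM in every library. The summed markers of pericytes, fibroblasts, microglia, oligodendrocytes, neurons, erythroid cells and lymphocytes were at most 11.4 FPKM in any library. Astrocyte markers summed to 21.3 to 31.6 against 18.3 to 23 FPKM, with Gfap and Aqp4 under 1 FPKM everywhere. Choroid plexus and ependymal markers summed to 39.1 to 216 against 59.6 to 125 FPKM, highest in knockout-labelled replicate 2. The defining choroid gene Ttr was near 0 in all libraries, while Foxj1, a factor of ciliated cells, did not exceed 0.113 FPKM in replicates 1 and 2 and lay between 1.90 and 5.85 FPKM in replicates 3 and 4.

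Endothelial cells switch between quiescent and growing states. Growing vessels are led by tip cells, which respond to VEGF and make matrix and proteases, while barrier endothelium is kept by Wnt, Notch and shear-dependent signals. Cultured endothelial cells can also take up contractile and mesenchymal genes under TGF-β, and they answer a mechanical, thermal or chemical stimulus with immediate early and heat shock genes within a short time.

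Replicates 3 and 4 differed from replicates 1 and 2 across a large part of the expressed genome. Limma called 5239 of the 11445 genes (45.8%) at an adjusted p of 0.05, with 2282 (19.9%) higher and 2957 (25.8%) lower in replicates 3 and 4. The sides did not overlap for 4556 genes (39.8%). A called difference of at least 2-fold was seen for 239 genes (2.09%) on the higher side and for 132 (1.15%) on the lower side. Over the 500 tested genes that varied most, the first principal component held 67.2% of the variance, against 10.2% and 7.42% for the next components. The split was proposed with this separation known, so these counts describe it and do not test whether it exists. The median difference of all tested genes was -0.04 on the log2(FPKM + 1) scale, the scale of every difference given here, and shares of called members are read against 19.9% and 25.8%. Among the tested genes, 240 passed the expression filter through one side alone and had to differ. Among the members of the 47 gene lists these were Orc1, Uhrf1, Kif11, Lcn2, Cd248, Lrp8, Dkk2, Tagln, Diaph3, Nr4a3, Lss, Gpx3, Mmp23 and Adam8, at most 2 in any list. The balance of the calls moved with the scaling: median centring gave 2605 higher and 2531 lower, and the TPM scale gave 1962 higher and 3319 lower.

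The difference had the same sign within wild type and within the knockout label for all 5239 called genes. A gene that moved in opposite directions would carry a large spread in this fit and could hardly be called. The shared sign therefore follows largely from the call and is no test of it. An interaction term asked whether the difference between the sides varied in size between the genotype labels, and limma called 0 of 11445 genes (0%). The smallest adjusted p was 0.355, and 700 genes had an unadjusted p under 0.05. The term rests on 2 libraries per side and label, so 0 calls do not show that the differences were equal in size. Reads recovered from the FPKM values gave 0 calls in limma-voom as well, with 797 under the unadjusted threshold. Without wild type replicate 2 the interaction was called for 42 genes, and without wild type replicate 4 for 1.

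Of 6 genes proposed as markers of the split, 5 were autosomal and all 5 were called. Ccnd1 (chromosome 7, 144929931 to 144939925, minus strand, GRCm38), which encodes cyclin D1, the cyclin that carries cells through G1, stood at 187 and 209 FPKM in wild type and 88.4 and 131 FPKM in knockout-labelled replicates 1 and 2. In replicates 3 and 4 it was at 55.3 and 54.8 FPKM in wild type and at 26.2 and 7.58 FPKM under the knockout label. The sides did not overlap, every wild type library was above the knockout-labelled ones of its side, and the difference was -2.33 ± 0.37 (SE, n = 4 each; limma adjusted p = 0.00254). On the genome 23.4% of the exon bases of Ccnd1 are shared with LTO1 on the opposite strand, which was at 2.68 FPKM on average, and use of strand in counting is not given in the sources used here.

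Cd93, a receptor of sprouting endothelium (chromosome 2, 148436640 to 148443563, minus strand), was at 119, 126, 62.2 and 82.7 FPKM in replicates 1 and 2, wild type first, and at 46.0, 48.1, 31.3 and 16.2 FPKM in replicates 3 and 4. It was lower at -1.49 ± 0.19 without overlap. The ligand gene Tgfb2 (chromosome 1, 186622792 to 186705989, minus strand) went from 22.9, 24.8, 12.5 and 14.9 FPKM to 9.45, 9.09, 5.95 and 2.98 FPKM in the same order of libraries. This difference of -1.38 ± 0.16 also left no overlap, and knockout-labelled replicate 4 was the lowest library for Ccnd1, Cd93 and Tgfb2 alike.

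Acta2, the smooth muscle actin (chromosome 19, 34241090 to 34255590, minus strand), had the largest difference of the 5 tested markers. It stood at 17.4, 21.9, 5.87 and 11.3 FPKM in replicates 1 and 2 and at 0.789, 1.36, 1.42 and 0.741 FPKM in replicates 3 and 4. The 4 libraries of replicates 3 and 4 lay close together and below every other library, and the difference was -2.74 ± 0.29 (limma adjusted p = 0.000771). Fos, a subunit of the AP-1 factor that is induced within minutes of a stimulus (chromosome 12, 85473890 to 85477273, plus strand), was the 1 tested marker that was higher. Its values were 376, 122, 135 and 119 FPKM in replicates 1 and 2 and 361, 548, 575 and 650 FPKM in replicates 3 and 4. Wild type replicate 1 was above wild type replicate 3, so the sides overlapped, with a difference of 1.66 ± 0.38 (limma adjusted p = 0.0108).

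Apln, which encodes apelin, a peptide released by tip cells, lies on the X chromosome (48025146 to 48034853, minus strand) and was outside the autosomal comparison. It stood at 1276, 1424, 658 and 896 FPKM in replicates 1 and 2 and at 627, 566, 402 and 170 FPKM in replicates 3 and 4, without overlap. With X and Y genes included the difference was -1.36 ± 0.25 (limma adjusted p = 0.00460), although the sex-linked difference between the sides cannot be told apart from it. Its receptor gene Aplnr did not exceed 0.103 FPKM in any library.

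**Figure D1:**
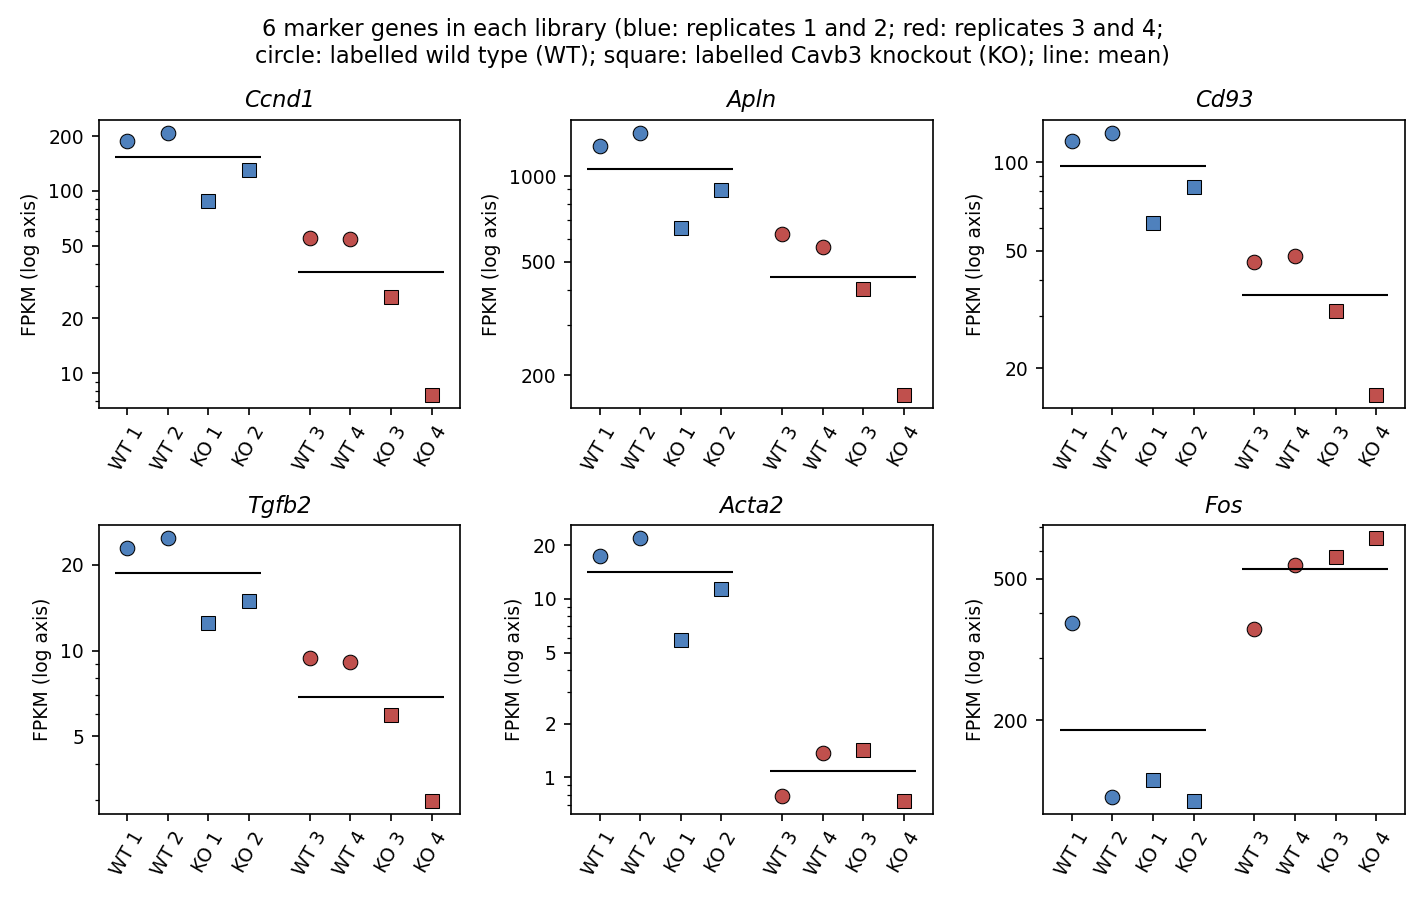
FPKM on a log axis of the 6 marker genes in each library, with replicates 1 and 2 in blue, replicates 3 and 4 in red, circles for libraries labelled wild type, squares for those labelled Cavb3 knockout and a line at the mean of each side. Ccnd1, Apln, Cd93, Tgfb2 and Acta2 are lower in all 4 libraries of replicates 3 and 4, and Fos is higher except that wild type replicate 1, at 376 FPKM, lies above wild type replicate 3, at 361 FPKM.

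Across 47 lists of pathways and endothelial functions, the lists with the largest shares of higher members were the immediate early genes (62.9%) and the heat shock and chaperone genes (54.2%), followed by DNA replication (37.5%) and the unfolded protein response (36%). Tip cell genes (61.5%), cholesterol genes (60.7%), ATF4 targets (59.3%) and VEGF and angiopoietin signalling (59.1%) had the largest shares of lower members. For comparison, 19.9% of all tested genes were higher and 25.8% were lower. Targets of p53 (24% higher, 28% lower) and NF-κB targets (21.4% higher, 25% lower) lay close to these shares in both directions. Within a list, members named beyond its 4 largest called differences and a set of key regulators were chosen after their values were seen.

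**Figure D2:**
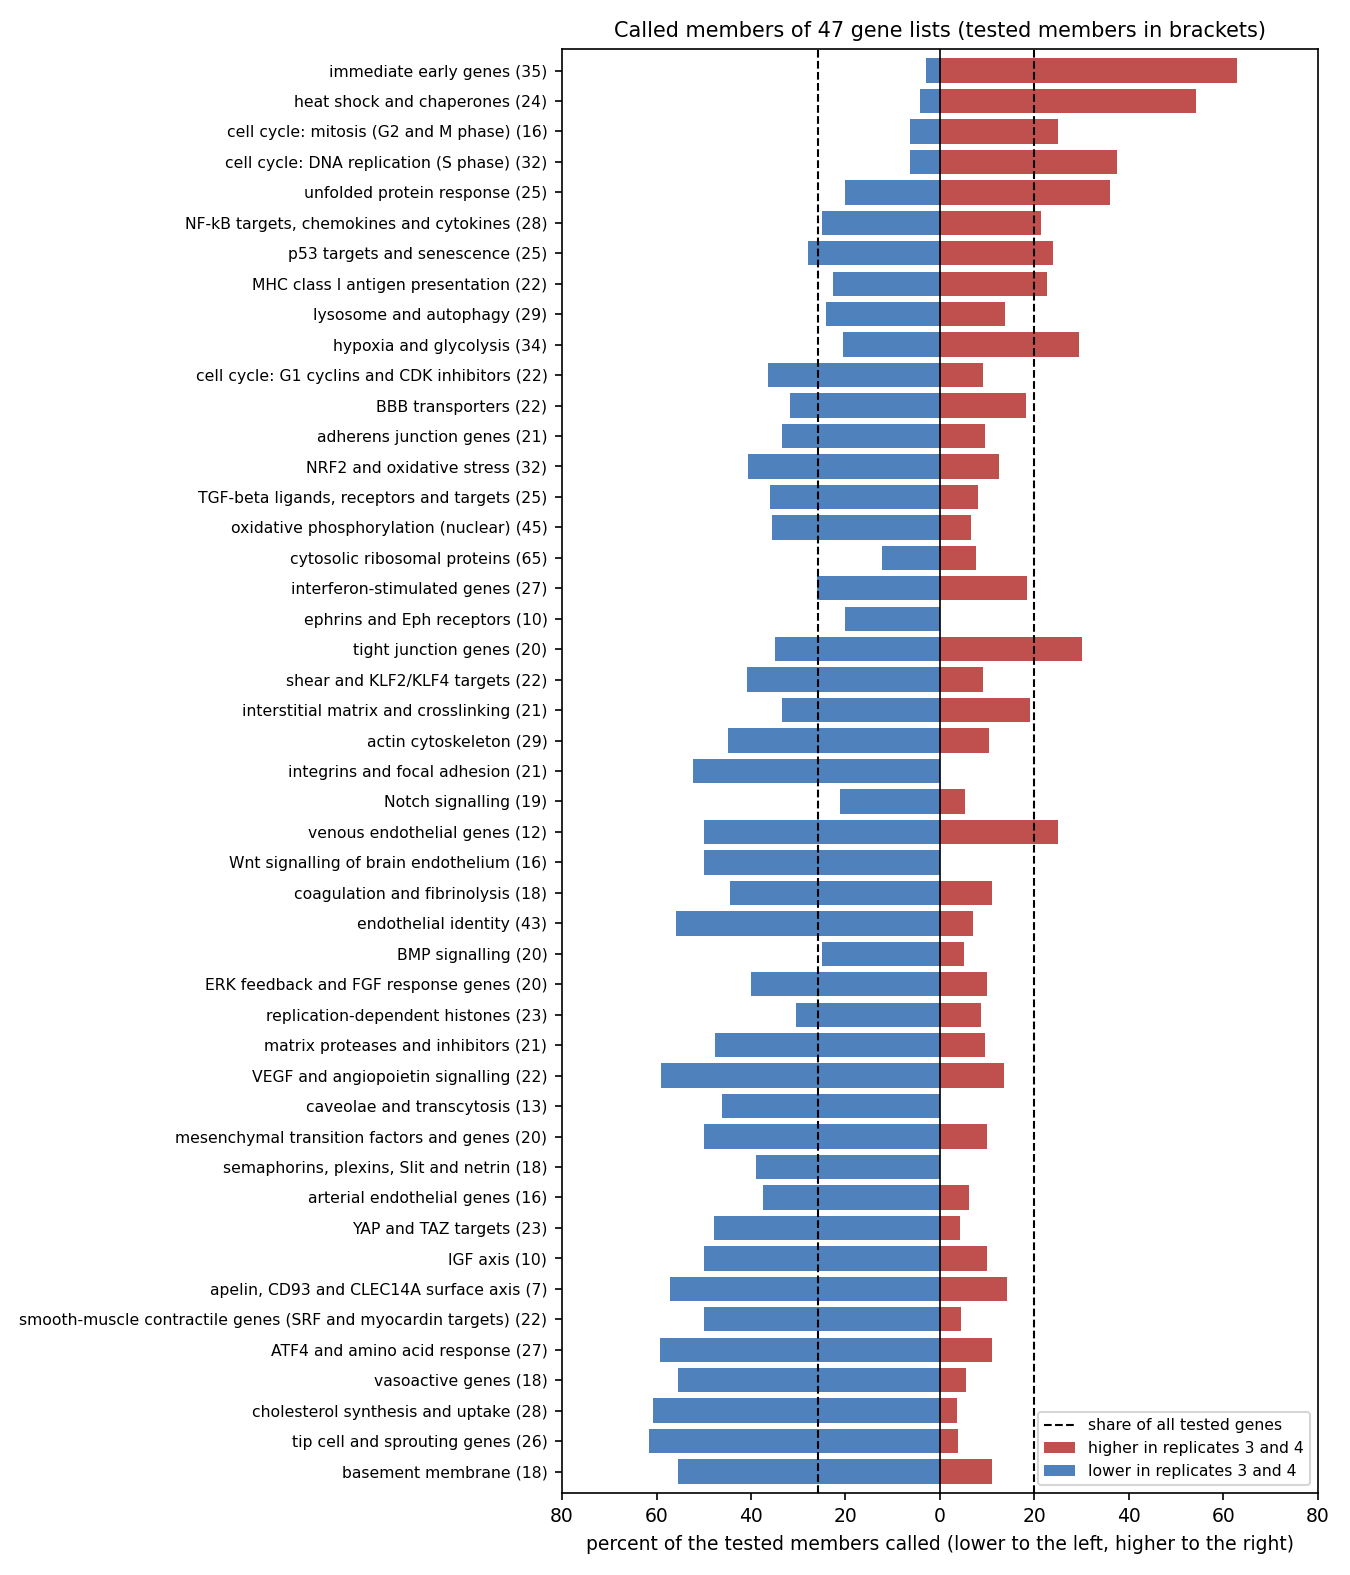
Percent of the tested members of 47 gene lists called higher (red, to the right) or lower (blue, to the left) in replicates 3 and 4, with the number of tested members in brackets and the lists ordered by their median difference. Dashed lines mark the 19.9% and 25.8% of all tested genes; immediate early genes reach 62.9% on the higher side and tip cell genes 61.5% on the lower side.

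Immediate early genes were higher in replicates 3 and 4. Of 35 members, all tested, 22 were higher, 1 was lower and 12 did not pass, with a median difference of 0.59. They encode transcription factors and short-lived regulators that cells transcribe within minutes of a stimulus, without new protein synthesis. Fosb, a partner of JUN in AP-1, had the largest difference of the list. It stood at 170, 12.8, 20.2 and 17.6 FPKM in replicates 1 and 2 and at 557, 609, 576 and 428 FPKM in replicates 3 and 4. The libraries of replicates 3 and 4 lay close together and far above the others, with wild type replicate 1 between them, and the difference was 4.12 ± 0.69 (limma adjusted p = 0.00308).

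Other AP-1 and related factors were higher as well. Jun was at 396, 166, 254 and 177 FPKM in replicates 1 and 2 and at 410, 509, 639 and 648 FPKM in replicates 3 and 4. Atf3, a stress-induced factor of the same class, went from 479, 165, 237 and 172 FPKM to 600, 740, 699 and 612 FPKM. Neither gene overlapped between the sides, although for Jun wild type replicate 1, at 396 FPKM, lay just below wild type replicate 3, at 410 FPKM. The differences were 1.21 ± 0.29 for Jun, 1.47 ± 0.31 for Atf3 and 0.97 ± 0.13 for Junb.

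Klf4, a transcription factor of quiescent and flow-exposed endothelium, stood at 56.9, 34.7, 44.2 and 45.9 FPKM in replicates 1 and 2 and at 152, 159, 151 and 116 FPKM in replicates 3 and 4. This difference of 1.66 ± 0.16 left a wide gap between the sides. Klf2, its close relative, overlapped at 33.8 to 55.7 against 33.1 to 48.2 FPKM (difference 0.08 ± 0.18, adjusted p = 0.757). Arc, a neuronal activity gene also induced by serum, was higher by 1.81 ± 0.28, Zfp36, which destabilises cytokine mRNAs, by 1.41 with overlap, the orphan nuclear receptor Nr4a2 by 1.09 ± 0.11, and Cebpb by 1.09 ± 0.16. Cebpb shares 20.7% of its exon bases with Tmem189 on the opposite strand, at 27.6 FPKM on average. Ier3, a survival factor, was the member that was lower (-0.66), while Myc, at -0.40, was not called. Egr1 was called at 0.90 ± 0.27, but its sides overlapped and the call was lost when any library but wild type replicate 1 or 3 was left out (adjusted p up to 0.0760). Nr4a1 was called at 0.95 and lost its call without wild type replicate 2, 3 or 4 or knockout-labelled replicate 3 (adjusted p up to 0.0591). Over the 8 fits that each left out 1 library, 19 to 23 members were higher.

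Heat shock and chaperone genes were higher as well. Of 24 members, all tested, 13 were higher, 1 was lower and 10 did not pass, with a median of 0.21. Hspa1a, an inducible HSP70 chaperone, stood at 18.6, 9.15, 25.1 and 20.6 FPKM in replicates 1 and 2 and at 66.6, 75.5, 97.5 and 96.9 FPKM in replicates 3 and 4. The sides did not overlap and the ratio of the means was 4.58 (difference 2.20 ± 0.19, limma adjusted p = 0.000510). Hspa1b, a near-identical copy, was at 137, 138, 285 and 271 FPKM in replicates 1 and 2 and at 265, 306, 346 and 393 FPKM in replicates 3 and 4, and overlapped. The difference of 0.73 ± 0.13 was called, but reads of the 2 copies can be split between them by the counting, so each value is uncertain. Dnajb1, the HSP40 partner of HSP70, went from 95.9, 29.1, 43.7 and 40.9 FPKM to 160, 200, 272 and 222 FPKM (difference 2.12 ± 0.35), with wild type replicate 1 again the highest of its side. Bag3, a co-chaperone that links HSP70 to autophagy, was higher by 0.64 ± 0.11, and Hsp90aa1, the inducible HSP90, by 0.43. The constitutive chaperones Hspa8 (0.12) and Hsp90ab1 (0.00) were not called, nor was the factor Hsf1, which drives the list (-0.12). Ahsa1, an activator of HSP90, was lower at -0.19.

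The promoters of these genes were read for the letters that heat shock factors bind, since the list was chosen by function and not by sequence. RefSeq gave 24 promoter windows for 18 of the 24 genes, each from 250 bases before to 50 bases after the start (GRCm38.p6). The letters GAANNTTC, the core of the heat shock element, were searched on both strands. They were in 12 of the 24 windows (50%) and in 7.86% of all 32851 RefSeq windows. The windows of Hspa1a and Bag3, which differ in the size of their change, are given with the matching letters in capitals. They lie at chr17:34972107-34972406 on the minus strand, with the match 104 bases before the start, and at chr7:128523333-128523632 on the plus strand, with the match after the start.
Hspa1a: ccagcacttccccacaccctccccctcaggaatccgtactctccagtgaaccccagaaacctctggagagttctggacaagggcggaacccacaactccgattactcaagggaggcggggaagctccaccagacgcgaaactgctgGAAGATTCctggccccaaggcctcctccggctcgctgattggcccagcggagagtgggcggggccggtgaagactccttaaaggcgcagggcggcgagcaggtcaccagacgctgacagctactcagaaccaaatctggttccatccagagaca
Bag3: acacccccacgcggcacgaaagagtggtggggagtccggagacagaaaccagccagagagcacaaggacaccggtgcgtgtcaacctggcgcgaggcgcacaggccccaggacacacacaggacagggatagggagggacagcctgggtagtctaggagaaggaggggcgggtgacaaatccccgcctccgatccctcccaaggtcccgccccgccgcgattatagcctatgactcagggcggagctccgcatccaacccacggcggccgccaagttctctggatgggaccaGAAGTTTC
Of the 11 genes with the letters, 5 were higher and 0 were lower. Of the 7 genes with a window that lacked them, among them Dnajb1, 6 were higher and 1 was lower.

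The unfolded protein response, by which the endoplasmic reticulum answers misfolded protein, was split. Of 25 tested members 9 were higher, 5 were lower and 11 did not pass, with a median of 0.11. The lower count was 3 without wild type replicate 2 or 4 or knockout-labelled replicate 2, and the higher count stayed between 6 and 9 over the fits that left out 1 library. Ppp1r15a, the phosphatase subunit that reverses the translation block, stood at 189, 88.9, 140 and 94.2 FPKM in replicates 1 and 2 and at 352, 271, 356 and 498 FPKM in replicates 3 and 4 without overlap (difference 1.55 ± 0.27). Dnajb9 was higher by 1.27 ± 0.22 and Herpud1 by 1.01 ± 0.21, both of which act in the disposal of misfolded protein, and the chaperone Hspa5 by 0.55. Sdf2l1, a cofactor of the same chaperone, was lower at -1.23 ± 0.14, at 12 to 14.7 against 3.38 to 6.16 FPKM. Xbp1 (-0.09) and Ddit3 (0.11), the usual read-outs of this response, were not called.

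**Figure D3:**
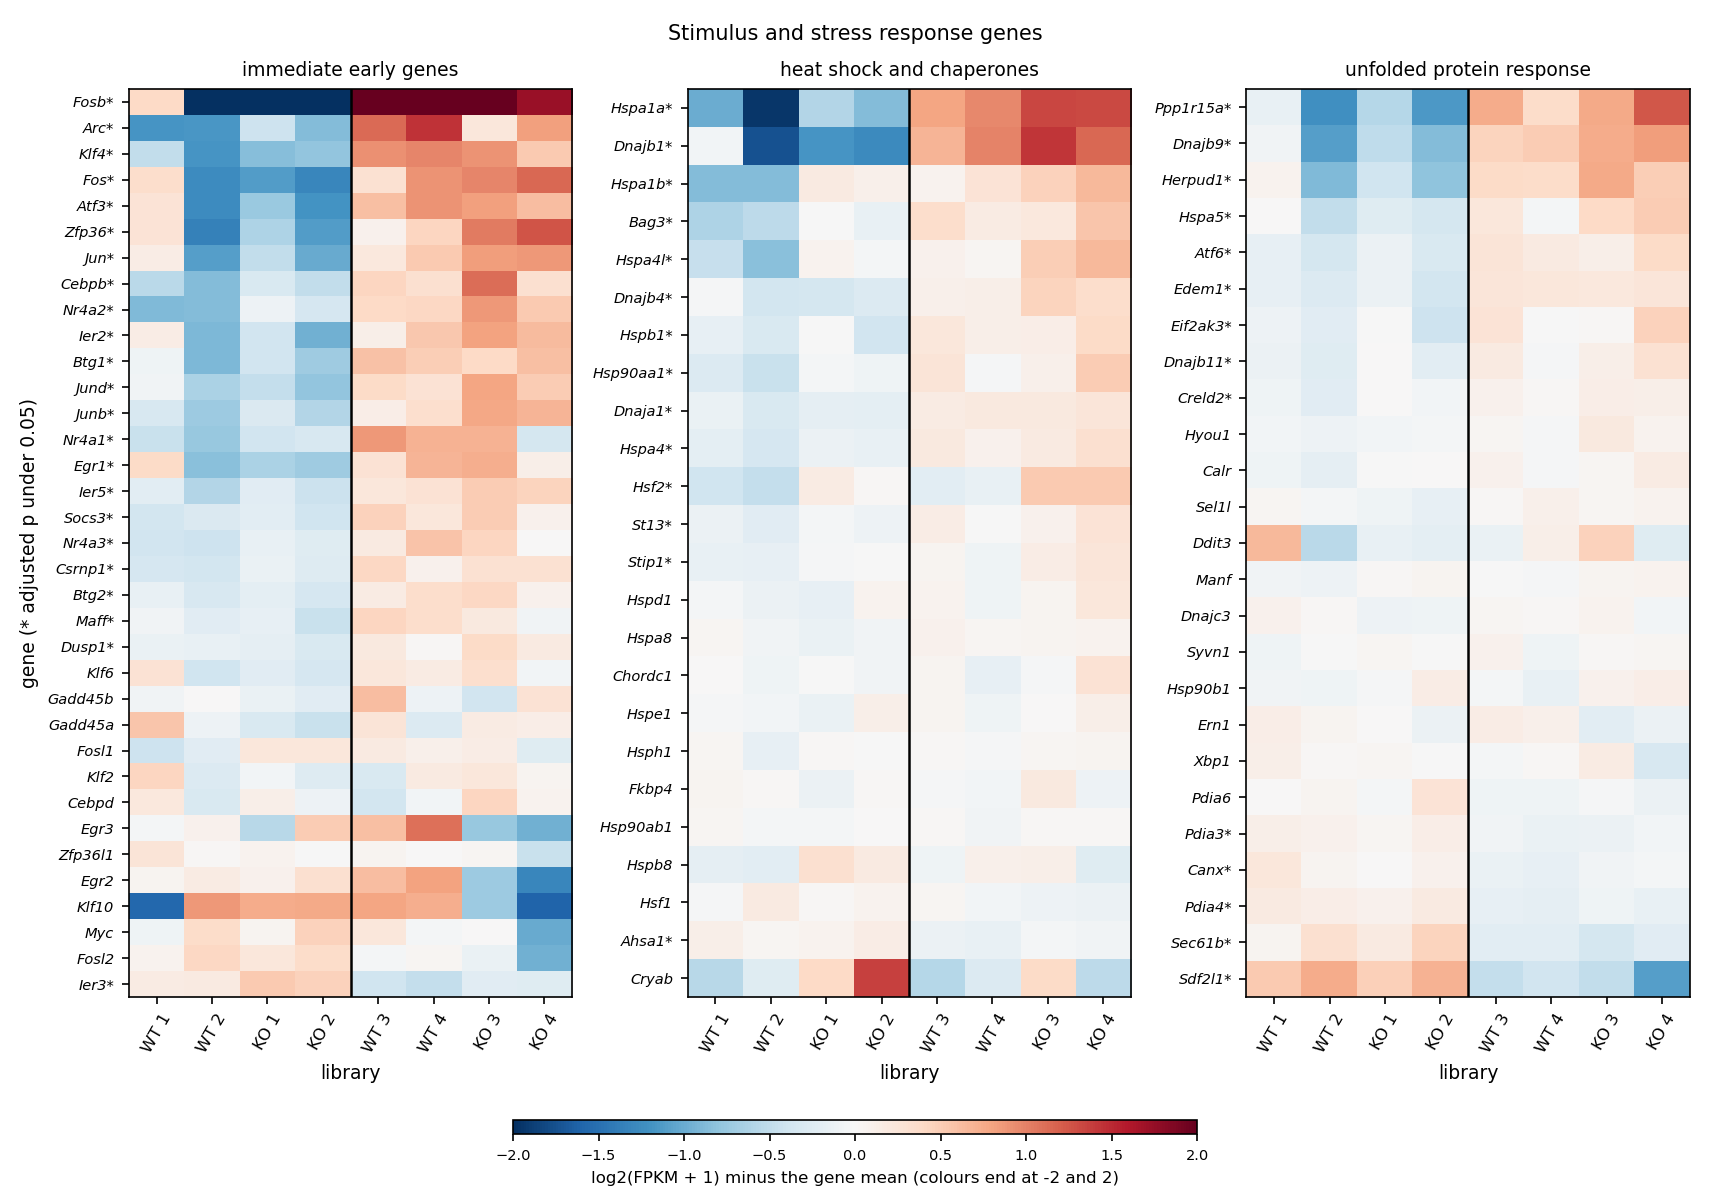
Log2(FPKM + 1) minus each gene's mean over the 8 libraries (colour, ending at -2 and 2) for the tested immediate early, heat shock and unfolded protein response genes, with replicates 1 and 2 left of the line, replicates 3 and 4 right of it, and an asterisk for genes with a limma adjusted p under 0.05. Fosb, Hspa1a, Dnajb1 and Arc have the largest differences, and wild type replicate 1 is the highest of its side for Fosb, Fos, Jun, Atf3 and Dnajb1.

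NF-κB targets went both ways. Of 28 tested members 6 were higher, 7 were lower and 15 did not pass. Nfkbiz, an inducible co-regulator, was higher by 1.67 ± 0.31, Cx3cl1, an adhesive chemokine, by 1.19 ± 0.10 and Tnfaip3, the inhibitor known as A20, by 1.07. Ccl2, which draws monocytes, stood at 244, 247, 153 and 182 FPKM in replicates 1 and 2 and at 96.6, 99.2, 102 and 69.1 FPKM in replicates 3 and 4 without overlap (difference -1.15 ± 0.13). Vcam1, a leukocyte adhesion molecule, was lower at -0.95 ± 0.16, and Icam1 was not called (-0.09).

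Contractile genes of smooth muscle, which SRF and its partners of the myocardin family activate, were lower in replicates 3 and 4. Of 32 listed genes 22 were tested, and of these 11 were lower, 1 was higher and 10 did not pass, with a median of -0.38. Beside Acta2, Myl9, a regulatory myosin light chain, stood at 33.0, 41.3, 14.3 and 17.9 FPKM in replicates 1 and 2 and at 3.96, 3.38, 2.87 and 1.90 FPKM in replicates 3 and 4. The sides were far apart and both genotype labels moved, at -3.02 in wild type and at -2.34 under the knockout label (difference -2.68 ± 0.17). Tgfb1i1, a focal adhesion protein known as Hic-5, was lower at -1.43 ± 0.13, the tropomyosin Tpm2 at -0.89 ± 0.18, the calponin Cnn2 at -0.88 and the nonmuscle myosin heavy chain Myh9 at -0.56. Cnn1, a late smooth muscle gene that was too low to test, was at 2.71, 2.74, 0.912 and 1.04 FPKM against 0.128, 0.127, 0.200 and 0.0622 FPKM. Tagln was called at -0.76, but it is the 1 tested member that passed the filter through one side alone, and it shares 62.4% of its exon bases with a gene on the opposite strand.

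The defining genes of smooth muscle cells were near 0 on both sides. Of 9 markers Myh11, Des, Myocd, Actg2 and Pln stayed under 1 FPKM in every library, and the summed level was 8.41 to 29.9 FPKM in replicates 1 and 2 and 2.31 to 2.70 FPKM in replicates 3 and 4. Acta2 made up most of that sum in replicates 1 and 2. In these bulk samples fewer cells of one kind and less RNA per cell cannot be told apart. Pericyte markers summed to 2.71 to 5.47 against 3.58 to 6.08 FPKM, with 8 of 10 under 1 FPKM everywhere.

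Part of the list did not pass the test. Srf itself was not called over both genotypes (0.03), and neither were Actb (0.11), Actg1 (-0.08) and Vcl (-0.02). Srf stood at 39.8, 47.8, 53.6 and 48.5 FPKM in replicates 1 and 2. In replicates 3 and 4 the wild type values were 73.2 and 73.9 FPKM and those under the knockout label 34.9 and 28.0 FPKM. Replicates 3 and 4 lay above replicates 1 and 2 in wild type and below them under the knockout label, but the interaction was not called (adjusted p = 0.355). In limma within a label Srf was called at 0.74 in wild type alone (adjusted p = 0.0107) and at -0.69 under the knockout label alone (adjusted p = 0.0462). The letters of the CArG box, the site that SRF binds, were searched on both strands and were in 8 of the 31 RefSeq windows of this list (25.8%) and in 1.63% of all windows. Of the 6 tested genes with the letters 3 were lower and 0 were higher, and of the 12 tested genes with a window that lacks them 6 were lower and 1 was higher. Myl9 is one of them, and its window at chr2:156775214-156775513 on the plus strand holds the letters 161 bases before the start, in capitals here.
Myl9: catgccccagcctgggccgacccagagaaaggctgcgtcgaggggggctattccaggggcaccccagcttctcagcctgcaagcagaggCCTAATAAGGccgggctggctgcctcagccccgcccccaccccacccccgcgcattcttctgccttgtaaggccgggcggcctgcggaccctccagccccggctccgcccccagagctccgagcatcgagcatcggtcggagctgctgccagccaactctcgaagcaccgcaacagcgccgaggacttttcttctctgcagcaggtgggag
The window of Acta2 did not hold these exact letters, although Acta2 had the largest difference of the list. Variants of the box with other bases were not searched, so the lack of a match does not show that an SRF site is absent.

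Genes of the cytoskeleton, of adhesion and of the YAP and TAZ co-activators, which read cell shape and tension, were lower alongside. Of 29 tested genes of the actin cytoskeleton 13 were lower and 3 were higher, of 21 integrin and focal adhesion genes 11 were lower and none was higher, and of 23 YAP and TAZ targets 11 were lower and 1 was higher. Itga4, the integrin α4 that binds VCAM1, stood at 29.7, 28.9, 16.4 and 19.2 FPKM in replicates 1 and 2 and at 8.30, 9.03, 6.27 and 4.36 FPKM in replicates 3 and 4 without overlap (difference -1.62 ± 0.10). The actin crosslinker Actn1 was lower at -0.90 ± 0.09 and the laminin receptor subunit Itga3 at -0.74 ± 0.06. Ankrd1, a YAP target, was at 44.9, 94.7, 54.4 and 67.2 FPKM against 29.8, 27.5, 16.8 and 13.4 FPKM (difference -1.55 ± 0.25), and Axl, a receptor kinase, was lower at -0.88. The most used YAP targets did not move with them: Ccn1 was not called, at 1682 to 1915 against 1643 to 2120 FPKM, and Ccn2 was called higher by 0.17 ± 0.06, a call that was lost in 7 of the 8 fits that left out 1 library (adjusted p 0.0783 to 0.121). Diaph1, a formin that lengthens actin filaments, was higher by 0.58 ± 0.06.

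TGF-β and mesenchymal genes were lower in part. Of 25 tested TGF-β genes 9 were lower and 2 were higher. Beside Tgfb2, the activin subunit Inhba was lower at -1.01 ± 0.24 and the receptor Tgfbr2 at -0.45 ± 0.09, while the ligand Tgfb1 was not called (-0.12). Of 20 mesenchymal genes 10 were lower and 2 were higher, and the count of lower genes dropped to 6 without wild type replicate 2 or 3 or knockout-labelled replicate 4. The repressors Zeb2 (-0.83 ± 0.12) and Zeb1 (-0.55 ± 0.09) were lower, and Snai1 and Snai2 were not called. Twist1 was higher by 0.76 ± 0.10: it stood at 4.33, 5.71, 11.2 and 13.8 FPKM in replicates 1 and 2 and at 9.36, 10.4, 21.7 and 18.9 FPKM in replicates 3 and 4. The knockout-labelled libraries of each side were above its wild type libraries, so the sides overlapped. In the BMP list 5 of 20 were lower, a share of 25% beside the 25.8% of all tested genes, and 1 was higher. The lower count was 9 without wild type replicate 1 and 8 without knockout-labelled replicate 3. Its antagonist Grem1 was lower at -1.44 ± 0.26 and the ligand Bmp4 at -1.08 ± 0.22.

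The basement membrane list had the lowest median of the 47 lists, at -0.47. Of 18 tested members 10 were lower, 2 were higher and 6 did not pass. Lamb1, the laminin β1 chain, stood at 34.4, 35.2, 18.9 and 28.8 FPKM in replicates 1 and 2 and at 12.9, 13.8, 11.1 and 7.23 FPKM in replicates 3 and 4 (difference -1.30 ± 0.15). The linker Nid1 was lower at -0.82 ± 0.06, the collagen IV chains Col4a2 and Col4a1 at -0.72 and -0.54, the proteoglycan Hspg2 at -0.72 and Sparc at -0.80 ± 0.07. The laminin chain gene Lama5 (0.25) and Nid2 (0.19) were called higher, and each of the 8 fits that left out 1 library had 1 higher member in place of 2. Fibronectin, encoded by Fn1, was at 2115, 2038, 1327 and 1489 FPKM against 1202, 1231, 1227 and 920 FPKM, and its sides did not overlap (difference -0.59 ± 0.11). Among 21 matrix proteases and inhibitors 10 were lower and 2 were higher, Adam8 of the former and Mmp23 of the latter having passed the filter through one side alone, with Mmp13 at -1.31 ± 0.12, Mmp3 at -1.09 ± 0.12 and the urokinase receptor gene Plaur at -0.70 ± 0.10.

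Tip cell genes, which mark the leading cells of a sprout, were lower in replicates 3 and 4. Of 30 listed genes 26 were tested, and 16 were lower, 1 was higher and 9 did not pass, with a median of -0.42. Igfbp3, a binding protein of insulin-like growth factors, stood at 34.4, 35.5, 17.0 and 20.0 FPKM in replicates 1 and 2 and at 6.27, 7.59, 3.90 and 2.41 FPKM in replicates 3 and 4. The sides did not overlap, and the difference was -2.22 ± 0.12 (limma adjusted p = 0.000200). Esm1, the tip cell proteoglycan endocan, was at 22.3, 24.2, 7.70 and 9.38 FPKM against 2.86, 3.84, 5.59 and 3.11 FPKM. It was lower at -1.68 ± 0.33. The difference was -2.49 in wild type and -0.87 under the knockout label, and the interaction was not called. Kdr, the main VEGF receptor, was lower at -0.99 ± 0.12 at 26.5 to 40.1 against 13.4 to 17.7 FPKM, and Angpt2, the Tie2 ligand of active vessels, at -0.56 ± 0.08. Flt1 (0.12), the VEGF decoy receptor, Nrp1 (-0.23) and Cxcr4 (-0.30) were not called. Pdgfb, which recruits pericytes, was called at -1.47 ± 0.41 and lost the call without wild type replicate 2 or knockout-labelled replicate 1 or 2 (adjusted p up to 0.0653). Its difference was -0.65 in wild type and -2.29 under the knockout label, and the interaction was not called. Dll4, the Notch ligand of tip cells, was called at -0.45 and lost the call in 5 of the 8 fits that left out 1 library (adjusted p 0.0824 to 0.0956). Over the 8 fits the list had 12 to 19 lower members.

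Endothelial identity genes were lower in the same direction, but not as a whole. Of 43 tested members 24 were lower, 3 were higher and 16 did not pass, with a median of -0.26. Cldn5, the main claudin of the barrier, stood at 74.4, 103, 40.0 and 66.6 FPKM in replicates 1 and 2 and at 34.3, 38.4, 21 and 10.4 FPKM in replicates 3 and 4 (difference -1.49 ± 0.25). Egfl7, a secreted endothelial factor and host of a vessel microRNA, was lower at -1.48 ± 0.39, S1pr1, the sphingosine phosphate receptor, at -0.92 ± 0.11 and Emcn at -0.66. For Egfl7 the difference was -0.78 in wild type and -2.19 under the knockout label, and the interaction was not called. Sox18, an endothelial transcription factor, had the largest fitted difference at -3.25 ± 0.85, yet its values were erratic. They were 8.48, 107, 30.4 and 70.2 FPKM in replicates 1 and 2 and 7.39, 9.18, 0.807 and 0.815 FPKM in replicates 3 and 4. Wild type replicate 1 lay among replicates 3 and 4, and the call was lost without wild type replicate 2 or knockout-labelled replicate 2 or 4 (adjusted p up to 0.0651) and in limma-voom.

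Some other endothelial genes differed less or did not pass the test. Of 9 tested brain endothelial markers, Cldn5 and Kdr among them, 4 were lower (44.4%) and 1 was higher. Pecam1 lay between 286 and 391 FPKM in replicates 1 and 2, against 277 to 348 FPKM in replicates 3 and 4, with a difference of -0.10 ± 0.06 that was not called. Cdh5, the cadherin of endothelial junctions, was at 517 to 679 against 497 to 544 FPKM, and its call at -0.21 ± 0.07 was lost in 6 of the 8 fits that left out 1 library. Tek (0.00 ± 0.06) and Erg (0.15) were not called, while Tie1 (0.21 ± 0.05), Vwf (0.28) and Clec14a (0.33) were higher. Markers of fenestrated endothelium, a list that holds Esm1, Igfbp3 and Plvap, summed to 96.3 to 141 FPKM in replicates 1 and 2 and to 57.8 to 79.2 FPKM in replicates 3 and 4. Lymphatic endothelial markers summed to 68.7 to 85.6 against 43.0 to 54.9 FPKM, with the defining factor Prox1 under 1 FPKM everywhere. Their part in the endothelial results was not tested.

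**Figure D4:**
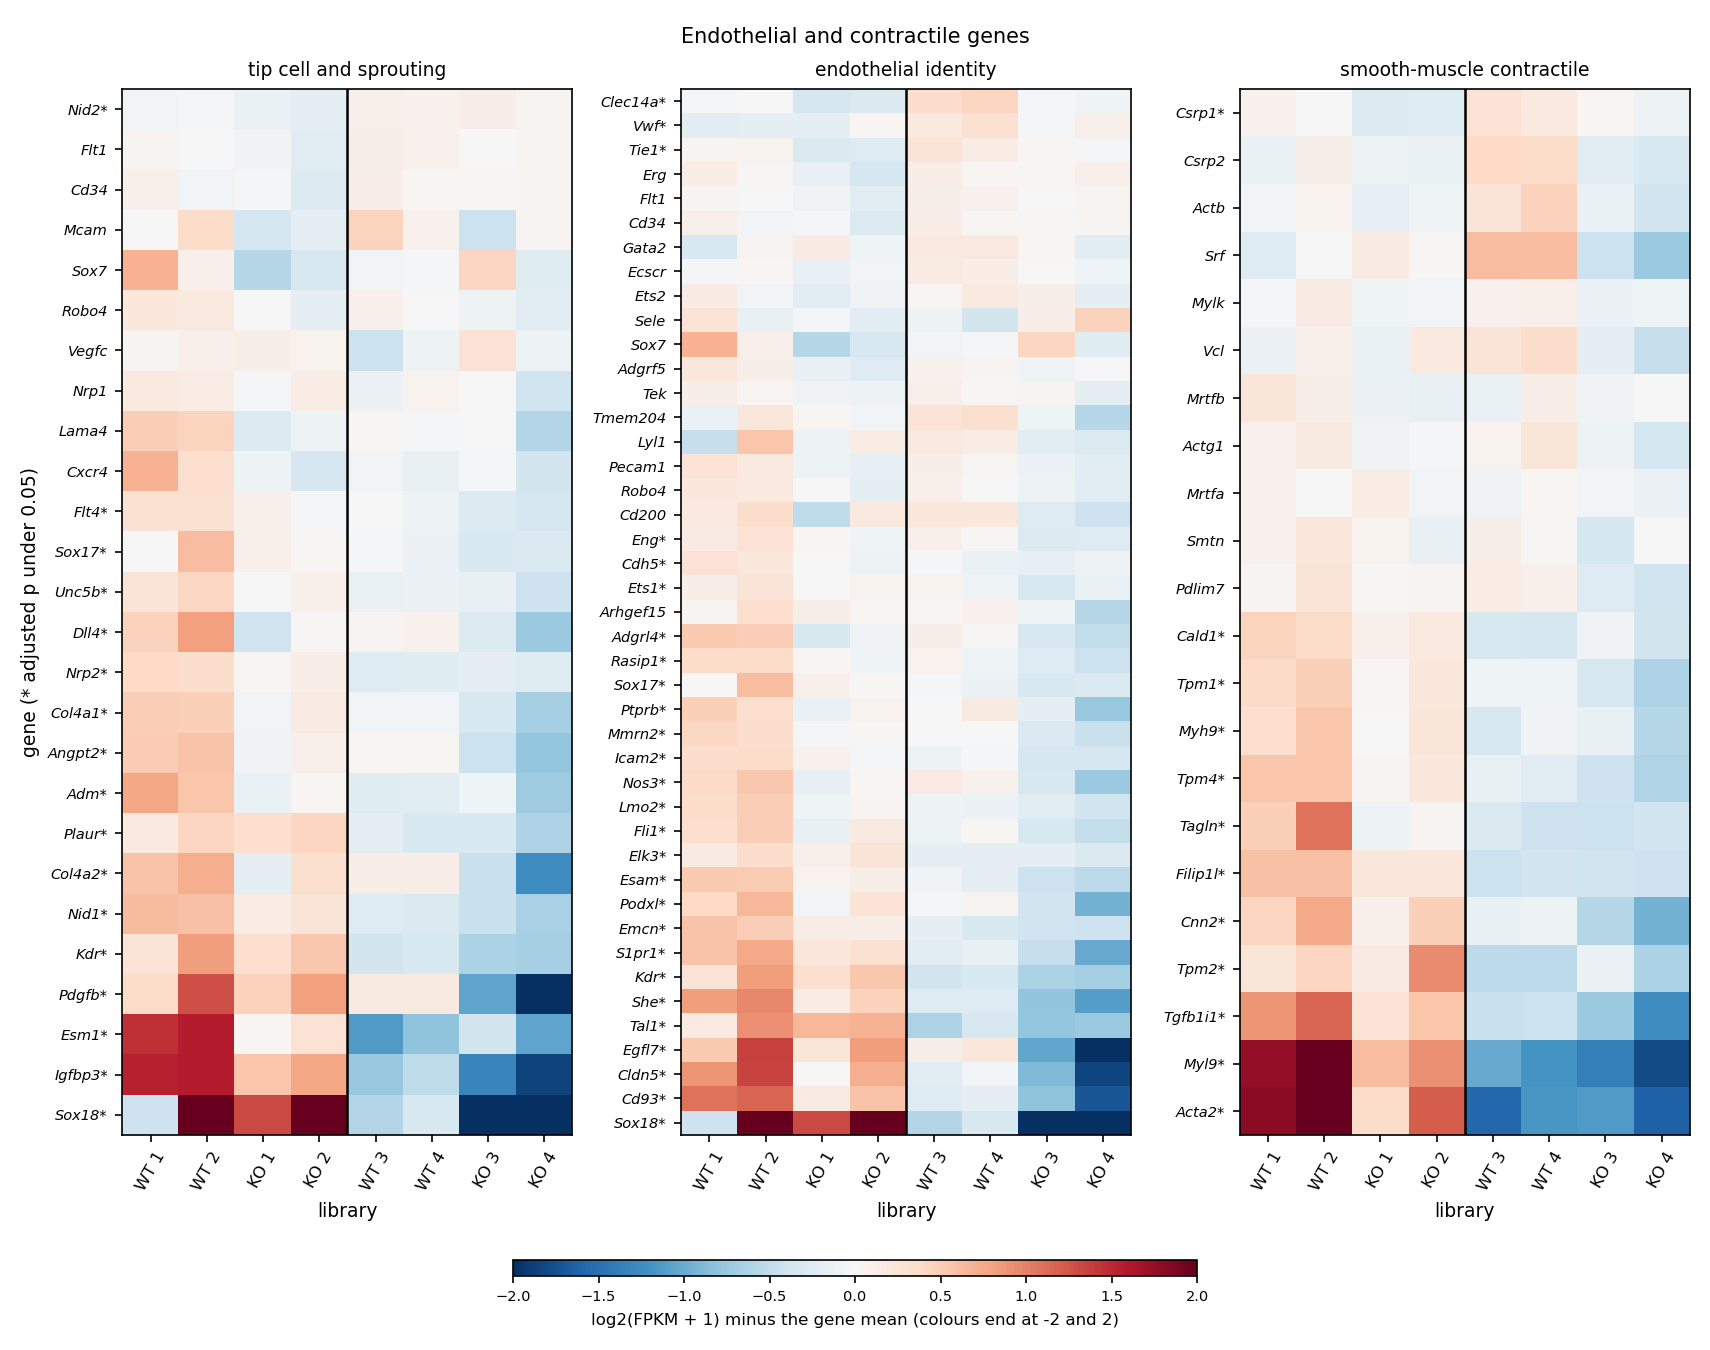
Log2(FPKM + 1) minus each gene's mean over the 8 libraries (colour, ending at -2 and 2) for the tested tip cell, endothelial identity and smooth muscle contractile genes, replicates 1 and 2 left of the line and replicates 3 and 4 right of it, with an asterisk for a limma adjusted p under 0.05. Acta2, Myl9, Igfbp3, Cd93 and Cldn5 are lower in all 4 libraries of replicates 3 and 4, and knockout-labelled replicate 4 is the lowest library for each of them.

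Of 22 tested VEGF and angiopoietin genes 13 were lower and 3 were higher. Of 16 Wnt genes of brain endothelium 8 were lower and none was higher, a count that dropped to 5 without wild type replicate 2 or 4 or knockout-labelled replicate 2. In this list the secreted Wnt modulator Dkk2, the co-receptor Adgra2 and the target Apcdd1 were lower at -1.10, -0.82 and -0.79, Dkk2 having passed the filter through replicates 1 and 2 alone, while the general targets Lef1 and Axin2 were under 1 FPKM in every library. Of 19 Notch genes 4 were lower, a share of 21.1% beside the 25.8% of all tested genes, 1 was higher and 14 did not pass, and 8 were lower without wild type replicate 1. Of 18 vasoactive genes 10 were lower and 1 was higher, with 6 lower without wild type replicate 2 or knockout-labelled replicate 2. Nos3, the endothelial nitric oxide synthase, was lower at -0.40 ± 0.10. Edn1, which encodes endothelin-1, was called at -1.03 ± 0.34 and lost the call without any library but wild type replicate 1 or 4 (adjusted p up to 0.119). Its difference was -0.21 in wild type and -1.85 under the knockout label, and the interaction was not called (limma adjusted p = 0.436).

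Barrier genes were mixed. Of 22 tested transporters 7 were lower (31.8%) and 4 were higher (18.2%), near the 25.8% and 19.9% of all tested genes. Of 20 tight junction genes 7 were lower (35%) and 6 were higher (30%). Slc2a1, the glucose transporter GLUT1 of the barrier, stood at 478, 567, 402 and 457 FPKM in replicates 1 and 2 and at 373, 361, 282 and 234 FPKM in replicates 3 and 4 (difference -0.62 ± 0.09). Slc16a1, the lactate transporter MCT1, went the other way, from 11.7, 8.45, 11.9 and 9.21 FPKM to 29.1, 32.1, 25.3 and 30.9 FPKM (difference 1.43 ± 0.12). Both left no overlap. The efflux pumps Abcb1a (-0.03) and Abcg2 (-0.02) and the junction protein Ocln (0.05) were not called. Of 13 genes of caveolae and transcytosis 6 were lower and none was higher, among them Cav1 (-0.75 ± 0.10) and Plvap (-0.56 ± 0.09), which forms diaphragms in leaky vessels.

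Cell cycle genes did not move as 1 group. Of 22 tested G1 regulators 8 were lower and 2 were higher, and the lower count was 5 without knockout-labelled replicate 2. Ccnd2, a second D-type cyclin, was lower like Ccnd1, at 33.0, 35.9, 18.2 and 25.2 FPKM against 13.2, 14.6, 12.2 and 6.91 FPKM (difference -1.19 ± 0.16), and Cdk4 at -0.37. Cdkn1c, the CDK inhibitor p57, was higher, at 2.36 to 3.27 against 7.54 to 9.58 FPKM (difference 1.38 ± 0.09). Cdkn1a, the inhibitor p21, was not called (0.20 ± 0.10), nor was Cdkn1b (-0.04).

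DNA replication genes, by contrast, were higher in part. Of 40 listed genes 32 were tested, and 12 were higher (37.5%), 2 were lower and 18 did not pass, with a median of 0.14. The higher count was 9 to 11 over the fits that left out 1 library. Pcna, the clamp that holds DNA polymerase to its template, stood at 49.5, 37.6, 42.4 and 39.7 FPKM in replicates 1 and 2 and at 97.5, 83.9, 76.7 and 87.5 FPKM in replicates 3 and 4. All 4 values of each side lay together and the difference was 1.02 ± 0.10 (limma adjusted p = 0.000571). The licensing factor Cdt1 was higher by 0.77 ± 0.13 and the helicase subunit Mcm3 by 0.63 ± 0.11. The clamp loader subunit Rfc5 was higher by 1.41 ± 0.29, at 1.79 to 2.18 against 3.87 to 11.2 FPKM, and it shares 10.7% of its exon bases with Wsb2, a gene on the opposite strand at 41.2 FPKM. Uhrf1, which keeps DNA methylation through replication, was lower at -0.46 and passed the filter through replicates 1 and 2 alone. Of 41 mitosis genes only 16 reached the filter, and 4 were higher (25%, near the 19.9% of all tested genes) and 1 was lower. Kif11, among the 4, passed through replicates 3 and 4 alone. Mki67 was at 0.402, 0.470, 0.437 and 0.579 FPKM in replicates 1 and 2 and at 0.251, 0.395, 0.285 and 0.372 FPKM in replicates 3 and 4, so the proliferation marker was low in all 8 libraries. Kif23, a kinesin of cell division, was higher by 1.01 ± 0.09. Cdk1 was called at 0.59 and lost the call without wild type replicate 2 (adjusted p = 0.0501). Of 23 tested replication-dependent histone genes 7 were lower (30.4%, near the 25.8% of all tested genes) and 2 were higher, with Hist1h1d at -1.76 ± 0.22 and Hist2h3c2 at -1.50 ± 0.20. With 1 library left out 0 to 3 were higher, and 11 were lower without wild type replicate 1.

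The p53 list was split as well, with 6 higher and 7 lower of 25. Mdm2, the ligase that degrades p53, was higher by 0.94 ± 0.11 and the apoptosis gene Pmaip1 by 0.90 ± 0.09. Gdf15, a secreted stress factor, stood at 35.7, 38.1, 22.1 and 22.7 FPKM in replicates 1 and 2 and at 13, 11, 10.4 and 7.38 FPKM in replicates 3 and 4 (difference -1.40 ± 0.11). Trp53 itself was lower at -0.46.

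Genes of cholesterol and fatty acid synthesis, which the SREBP factors control, were lower in replicates 3 and 4. Of 28 tested members 17 were lower, 1 was higher and 10 did not pass, with a median of -0.41. Scd1, a fatty acid desaturase, stood at 13.5, 12.4, 13.9 and 18.6 FPKM in replicates 1 and 2 and at 3.78, 4.46, 6.34 and 3.74 FPKM in replicates 3 and 4 (difference -1.49 ± 0.15). Scd2, a related desaturase, went from 20.1, 21.6, 17 and 28.4 FPKM to 10.2, 10.7, 10.9 and 7.0 FPKM (difference -1.09 ± 0.18). Neither gene overlapped between the sides. The desaturase gene Fads2 was lower at -0.83 ± 0.09 and Srebf2, which encodes one of the SREBP factors, at -0.29. Hmgcs1, an early enzyme of the path, was not called (0.10), and Insig1, which holds SREBP back, was higher by 0.46.

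ATF4 targets, which supply amino acids and load tRNAs, were lower too. Of 27 tested members 16 were lower, 3 were higher and 8 did not pass, with a median of -0.39. Phgdh, the first enzyme of serine synthesis, stood at 124, 128, 87.9 and 122 FPKM in replicates 1 and 2 and at 44.3, 46.1, 48.7 and 28.2 FPKM in replicates 3 and 4 without overlap (difference -1.46 ± 0.17). The proline enzyme Aldh18a1 was lower at -1.13 ± 0.16, the mitochondrial folate enzyme Mthfd2 at -1.0 ± 0.11 and the synthetases Sars and Wars at -0.74 and -0.71. Atf4 itself was not called (-0.07), and Sesn2 (0.69), Ddit4 (1.00) and Cebpb were higher.

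**Figure D5:**
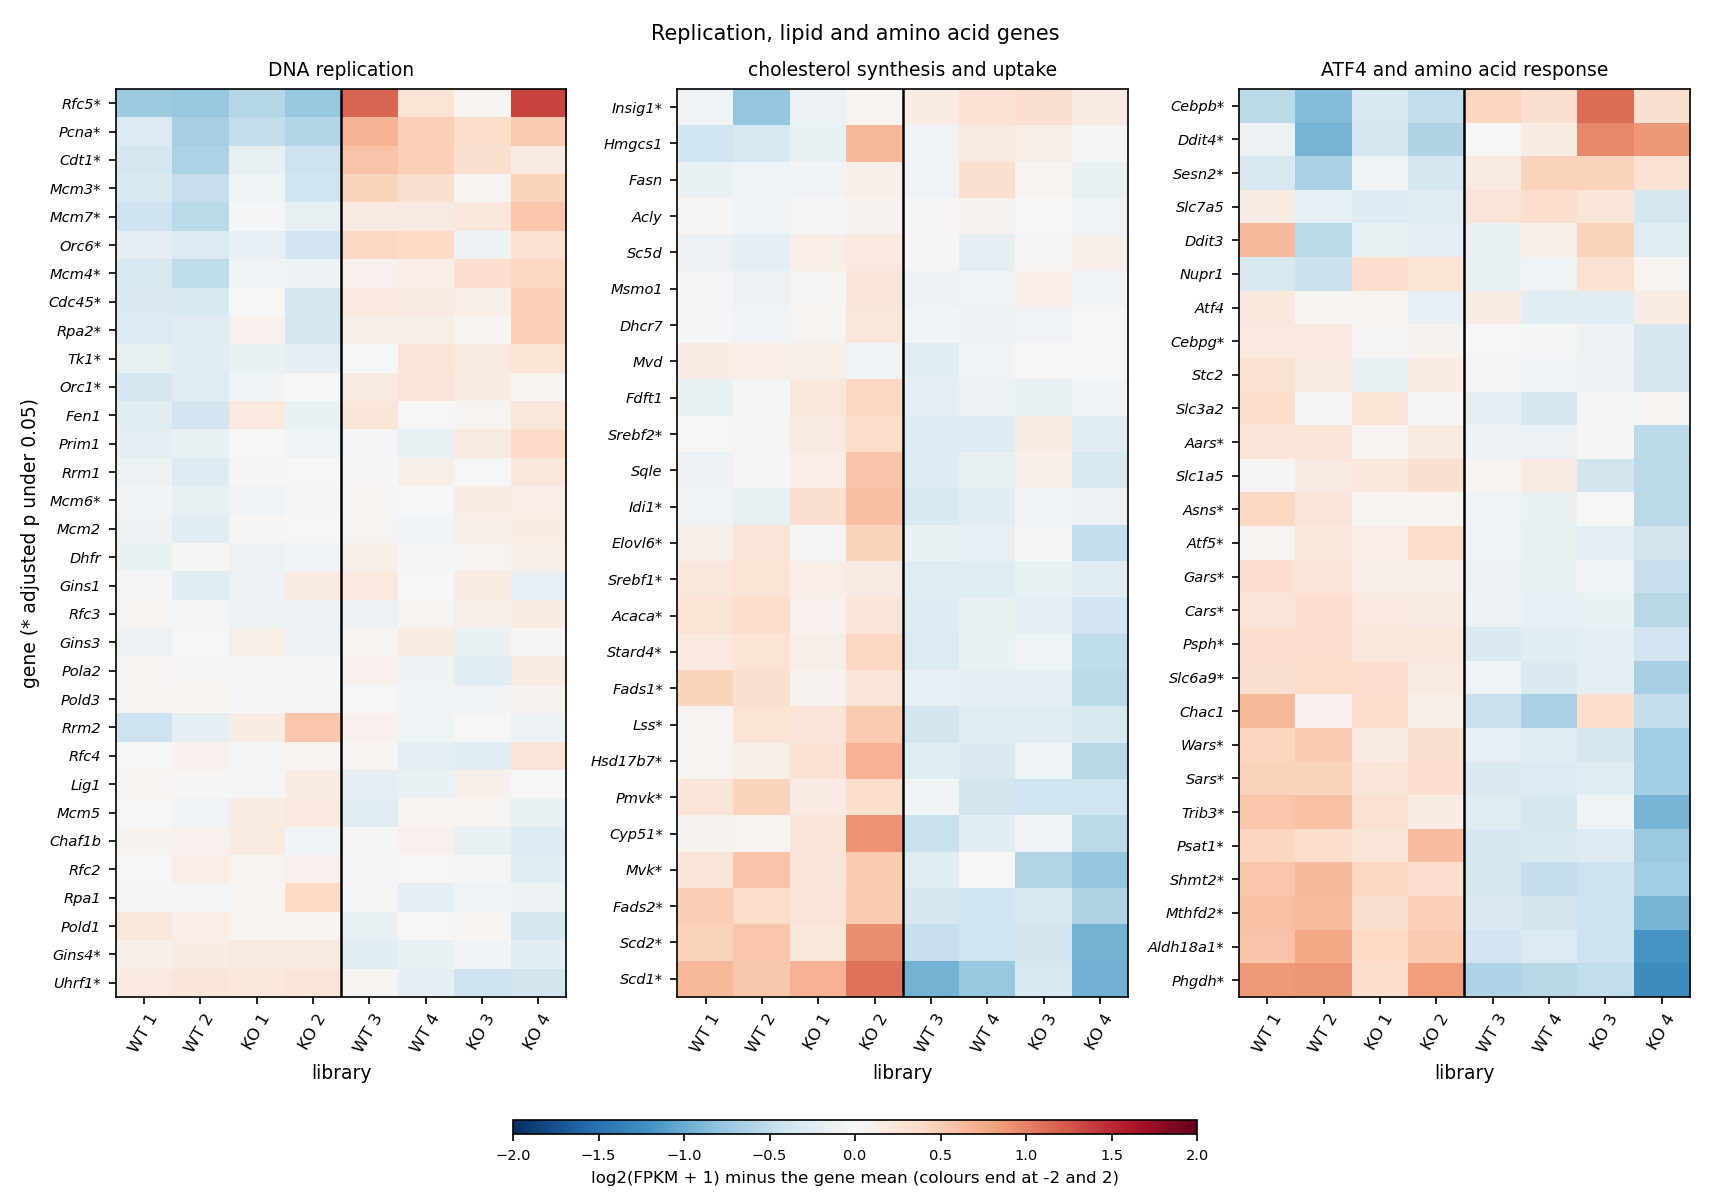
Log2(FPKM + 1) minus each gene's mean over the 8 libraries (colour, ending at -2 and 2) for tested genes of DNA replication, cholesterol synthesis and uptake, and the ATF4 and amino acid response, replicates 1 and 2 left of the line and replicates 3 and 4 right of it, with an asterisk for a limma adjusted p under 0.05. Pcna and Cdt1 are higher and Scd1, Scd2 and Phgdh are lower in all 4 libraries of replicates 3 and 4.

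Further metabolic lists lay at unlike distances from the shares of all tested genes, 25.8% lower and 19.9% higher. Of 32 tested NRF2 and redox genes 13 were lower (40.6%) and 4 were higher (12.5%). Among them were the biliverdin reductase gene Blvrb at -1.79 ± 0.12 and Gclc, the first enzyme of glutathione synthesis, at 0.83 ± 0.14. Hypoxia and glycolysis genes were higher in 10 (29.4%) and lower in 7 (20.6%) of 34 cases. Of 45 nuclear genes of oxidative phosphorylation 16 were lower (35.6%) and 3 were higher (6.67%), with a median of -0.13. With 1 library left out 1 to 3 of these were higher. Of 65 ribosomal protein genes 8 were lower (12.3%) and 5 were higher (7.69%), below the shares of all tested genes in both directions. The higher count ran from 2 to 7 with 1 library left out. The lower count of the last list was 15 without knockout-labelled replicate 3 and 14 without knockout-labelled replicate 1. It was 3 without wild type replicate 2, and 4 without wild type replicate 3 or 4 or knockout-labelled replicate 2 or 4.

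Some of the largest differences lay outside the lists. Muc1, a membrane mucin, stood at 2.18, 1.83, 4.21 and 2.56 FPKM in replicates 1 and 2 and at 29.2, 21, 27.1 and 50.7 FPKM in replicates 3 and 4 (difference 3.13 ± 0.21, ratio of means 11.9). Rgcc, a regulator of the cell cycle and of the complement response, went from 3.40, 1.31, 2.51 and 2.51 FPKM to 14.6, 15.6, 21.4 and 18.8 FPKM (difference 2.46 ± 0.18). Both genes separated the sides widely and moved alike under both genotype labels. Mlf1 (2.77 ± 0.31), the small GTPase gene Gem (1.85 ± 0.30) and Apol10b (1.84 ± 0.10) were higher as well.

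On the lower side, Crct1 stood at 64.4, 77.9, 34.3 and 43.9 FPKM in replicates 1 and 2 and at 8.82, 8.18, 6.71 and 3.33 FPKM in replicates 3 and 4 (difference -2.85 ± 0.18). Pbp2 went from 16.9, 15.8, 8.56 and 9.87 FPKM to 1.29, 1.21, 0.858 and 0.832 FPKM (difference -2.71 ± 0.11). In both genes the sides did not overlap, and wild type was above the knockout label on either side. The calcium-activated chloride channel gene Ano1 was lower at -2.01 ± 0.14 and Serpinb9b, a granzyme inhibitor, at -1.83 ± 0.29. Prl2c2 and Prl2c3, placental hormone genes of a multigene family whose copies can share reads, had differences of -2.89 and -2.64 and are uncertain. Krtap5-4 and Mir212 also had differences above 2, but their values in replicates 3 and 4 were uneven. They ran from 1.65 to 24.7 FPKM and from 8.47 to 27.4 FPKM, the latter on 20 to 59 reads. Krtap5-4 passed the filter through replicates 3 and 4 alone. Its call was lost without wild type replicate 2 or knockout-labelled replicate 2 or 4 (adjusted p up to 0.0708) and in limma-voom.

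Transcript classes differed in their balance. Of 9985 protein-coding genes 18.9% were higher and 28.3% were lower. Of 190 long intergenic noncoding RNAs 33.7% were higher and 12.6% were lower, of 183 antisense transcripts 35.5% and 7.10%, and of 73 transcripts awaiting experimental support 50.7% and 9.59%. Of 538 processed pseudogenes 15.1% were higher and 8.74% were lower, below the shares of all tested genes in both directions. The shares of each class include genes that passed the filter through one side alone. The greater number of genes above 0 in replicates 3 and 4 moved with these shares and with the gene groups above, and its part in them was not tested. The share of mitochondrial genes in the summed FPKM was 3.31% to 4.22% in replicates 1 and 2 and 3.15% to 4.03% in replicates 3 and 4, and overlapped. Microglia and macrophage markers summed to 3.79 to 4.19 FPKM against 5.73 to 9.65 FPKM, with 12 of 13 under 1 FPKM in every library, and their part in the results was not tested.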

How the data were processed

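RNA from 8 libraries was sequenced (RNeasy Mini Plus kit and NEBNext Ultra RNA, per the labels' protocols), and HISAT2 2.0.5 is named in the submitters' processing notes. The sources used here do not give the counter, build, annotation or strand setting. The deposited FPKM values, made by the authors per gene, were identified from the values: FPKM times GENCODE M21 (GRCm38) exon length gave whole multiples within a tolerance of 0.01 for 96.5% to 96.8% of values, which gave the implied depth and the recovered reads.

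Of 54532 genes, 54495 had an M21 length and 50188 were autosomal. Genes entered the fit when 4 or more libraries held them at 1 FPKM or above. Limma 3.58.1 (R 4.3.3, trend and robust) fitted replicate set and genotype label to log2(FPKM + 1), with Benjamini-Hochberg adjustment over 11445 genes at 0.05, and with their interaction in a second fit. A fold change on this scale understates the change of low genes. The fits were tested on simulated data. The text names 6 markers, the 12 higher and 12 lower genes with the largest differences (no overlap, mean FPKM of at least 5), up to 4 called members of each list and key regulators; some genes are not reported here. The members, the split and the lists were chosen with earlier results of these data known. Counting error and spread between these libraries are the only errors covered. Alternatives changed the pseudocount, filter, scaling, tool, chromosomes and libraries.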

Additional observations from a re-analysis of the deposited data

Results flagged for a closer look

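Within the 4 libraries of a side, 1 library stood apart from the other 3 in 20 of 418 groups of values, over 209 named genes. The gap of that library to its nearest neighbour, divided by the range of the 4, was above Dixon's critical value for 4 samples, which chance passes in about 1 in 20 groups. The count is near that rate, so the values below do not show that any library was aberrant.

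Wild type replicate 1 stood apart in 6 of them. It was the highest of its side for the immediate early genes Fos at 376 FPKM, Fosb at 170 FPKM and Egr1 at 261 FPKM, and for Mlf1 at 3.27 FPKM. For the histone gene Hist2h3c2 it was the lowest, at 11 FPKM, and for the Notch target Hes1 it stood apart at 47.1 FPKM. Wild type replicate 3 was apart for P4ha1, a collagen hydroxylase subunit, at 67.5 FPKM.

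Knockout-labelled replicate 4 was the lowest of its side for Dkk2 at 0.276 FPKM, Fn1 at 920 FPKM, Actn1 at 38.1 FPKM, Ccl2 at 69.1 FPKM and Zeb1 at 8.08 FPKM. Knockout-labelled replicate 1 was apart for Cdkn1c at 3.27 FPKM, Phgdh at 87.9 FPKM and the ribosomal protein gene Rpl21 at 14.7 FPKM. Knockout-labelled replicate 2 was apart for Rps12 at 69.1 FPKM and Rpsa at 139 FPKM. Knockout-labelled replicate 3 was apart for Mir212 at 27.4 FPKM, Cebpb at 152 FPKM and Rpsa at 103 FPKM.

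For Hes1, Irf1 and Srf the libraries of the genotype labels lay in opposite directions between the sides. The difference under the knockout label minus that in wild type was -2.07 for Hes1, 0.87 for Irf1 and -1.43 for Srf on the log2(FPKM + 1) scale. The interaction test called none of the 3 (adjusted p = 0.543 for Hes1 and 0.355 for Srf).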

How the results depend on the processing

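The calls fell to 3336 (1474 higher, 1862 lower) with a mean FPKM of at least 5, where fewer genes were tested. With fewer libraries they fell to 3111 (1336 and 1775) in wild type alone and to 987 (493 and 494) under the knockout label alone. With 1 library left out, limma called 3767 to 5340 genes, 1639 to 2243 of them higher and 2128 to 3097 lower. Limma-voom on the recovered reads called 5356, and no filter on low values gave 2197 higher and 2162 lower. On the mean of wild type and knockout-labelled libraries per replicate number, 2 against 2, limma called 4918 genes and kept 4583 of the 5239. None of the 5239 calls reversed under any of the alternatives, all of which use libraries of the main fit. The interaction was called for 1 gene with X and Y genes included and for 0 to 42 genes with 1 library left out.

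Same-numbered libraries of the genotype labels deviated together at 0.183 in replicates 1 and 2 and at -0.347 in replicates 3 and 4. A single value per side, of unlike sign, cannot decide whether the numbers pair the libraries. The replicate block was fitted as a correlation, because each number lies within 1 side. It called 5947 genes (2584 higher, 3363 lower) and kept all 5239 calls. Its correlation was negative, at -0.177, which narrows the error of an unchanged set difference. The gain and the kept calls follow from this and are no test of the calls. Crossed pairs in replicates 3 and 4, chosen after seeing the data, had a correlation of 0.154 and gave 4620.

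Genes that changed sign were not called over both genotypes, and the cause was not tested. Under quantile normalization Abcg2 was at 0.0152 and Ccn1 at 0.0234, and under median centring Abcb1a was at 0.00817, Abcg2 at 0.0247, Ccn1 at 0.0306 and Yap1 at 0.0146. On the TPM scale Srf was at -0.012 and Tek at -0.0331, and with the GC trend removed Ccn1 was at 0.0212 and Tek at -0.0084. In wild type alone Ccn1 was at 0.0391, Cdkn1b at 0.0272, Hes1 at 0.791, Hey1 at 0.707, Irf1 at -0.325, Klf2 at -0.14, Ocln at -0.0353, Snai2 at -0.00114, Tek at -0.0101, Tgfb1 at 0.0296 and Yap1 at 0.039. Under the knockout label alone Abcb1a was at 0.074, Abcg2 at 0.0689, Snai1 at -0.16 and Srf at -0.686. With 1 library left out the ranges were -0.0866 to 0.0178 for Abcb1a, -0.0802 to 0.0394 for Abcg2, -0.0682 to 0.0263 for Ccn1, -0.0852 to 0.0245 for Cdkn1b, -0.727 to 0.0741 for Hes1, -0.194 to 0.00452 for Icam1, -0.0647 to 0.275 for Irf1, -0.0208 to 0.261 for Klf2, -0.18 to 0.502 for Snai1, -0.0782 to 0.198 for Snai2, -0.167 to 0.231 for Srf, -0.0451 to 0.0469 for Tek and -0.0556 to 0.00761 for Yap1.

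Of 213 named genes 33 lost their call without a filter on low values, 2 to 10 under each alternative of scaling, model or expression minimum that changed any, 41 in wild type alone, 95 under the knockout label alone and 6 to 21 with 1 library left out. Genes near 1 FPKM rest on few reads and their differences are understated by the pseudocount.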

Other observations

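Further gene families, chosen after their values were seen, also had called members; Btg1 and Btg2 are on the immediate early list too. All 5 tested TOB and BTG genes, which slow growth and shorten mRNA tails, were higher in replicates 3 and 4, with a median difference of 1.03. Tob1 stood at 64.2, 32.8, 49.9 and 39.9 FPKM in replicates 1 and 2, wild type first, and at 136, 151, 146 and 136 FPKM in replicates 3 and 4 without overlap (difference 1.63 ± 0.19). Of 6 CDC-like kinases and cyclins L, which regulate splicing, 5 were higher, and Clk1 went from 22.6, 12.6, 17.9 and 15.3 FPKM to 26.0, 28.8, 41.4 and 40.8 FPKM. Of 10 SR splicing factors 5 were higher and 0 were lower, with Srsf7 at 1.05 ± 0.18 and Srsf2 at 0.69 ± 0.12. Of 19 Hnrnp genes 8 were higher and 1 was lower.

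Of 76 tested genes of mitochondrial ribosomal proteins, 35 were lower and 2 were higher, with a median of -0.17. Of 15 clock and output genes 6 were higher and 2 were lower. Ciart, a repressor of the clock, was higher by 1.16 ± 0.17, Per1 by 0.68 ± 0.19 and Nr1d2 by 0.61 ± 0.12, while Bhlhe41 was lower at -0.53 ± 0.09 and passed the filter through replicates 1 and 2 alone. The nuclear RNAs Malat1 and Neat1 had differences of 0.91 and 0.60 with overlap between the sides. These counts are read against 19.9% higher and 25.8% lower among all tested genes.

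Rfc5, Cdk1 and Krtap5-4 shared an order of libraries in replicates 3 and 4, with wild type replicate 3 and knockout-labelled replicate 4 above the other 2. Rfc5 stood there at 9.60 and 11.2 FPKM against 4.73 and 3.87 FPKM.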
